A study of Mus musculus with 2 samples.

Results

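Carbonic anhydrases are the enzymes that interconvert carbon dioxide and bicarbonate, and 10 genes of this family (Car1, Car2, Car3, Car4, Car7, Car8, Car9, Car12, Car13, and Car14) are described here in gut epithelial preparations of Lrrc19 KO and WT mice. They were taken by symbol, as every probe set annotated to 1 of these genes alone, and are 10 of the 18193 genes that the array measured with at least 1 probe set. The rule uses no measured value, although the members were chosen with earlier results of these data known. RNA was pooled from 5 Lrrc19 KO mice and, separately, from 5 WT mice, each pool with 2 males and 3 females, all 6 weeks old, of C57BL/6 background, and kept free of specific pathogens. In both genotypes the intestine was shaken with 30 mM EDTA and the released cells were depleted of T cells, B cells, dendritic cells, and macrophages by magnetic sorting. The KO is a deletion of Lrrc19, whose exons are not named in the sources used here, and the labels do not say which part of the intestine was taken. Each pool was read on 1 Affymetrix mouse array, so the variation from mouse to mouse could not be measured, no test was possible, and every difference below compares these 2 pools only.

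The enzymes differ mainly in where they work. In the gut epithelium, cytosolic carbonic anhydrases supply protons and bicarbonate to the sodium-proton and chloride-bicarbonate exchangers that absorb salt, and membrane-bound ones act on the outer face of the cell. Car1 and Car4 are known for high expression in the colon, Car3 for its abundance in fat and muscle, and Car9 for its induction by low oxygen. Car8 lacks the catalytic activity of the family and is known as a partner of the inositol trisphosphate receptor in neurons.

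Of the 10 genes, Car3 and Car8 were lower in the Lrrc19 KO pool by at least 2-fold, and none was higher by this measure. Among the 12518 genes of the array with a measurable level, 0.407% were at least 2-fold lower and 0.559% at least 2-fold higher. Car3 was 10.6-fold lower and Car8 was 2.29-fold lower on the brightest probe set of each gene. Car13 was 1.83-fold lower and did not pass 2-fold. The other 7 genes lay between a log2 difference (Lrrc19 KO minus WT) of -0.30 for Car12 and 0.56 for Car7. RNA of mixed cells was measured, so fewer cells of a type and less RNA per cell cannot be told apart in any of these values.

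Intensities were linear, in arbitrary units, and the median of all probe sets, 127, served as a floor under which a value was not read as a level. All 10 genes reached this floor in at least 1 pool, as did 12518 of 18193 genes in all. The 10 were chosen with earlier results of these data known, and of the 6 family genes left out 1 reached the floor. That all 10 reached it is thus no result about the family. Of the 10, 6 had a log2 difference below 0 and 4 above it, and 47.9% of all genes were below 0. The median log2 difference of the 10 was -0.26, beside 0.01 for all genes at or above the floor. Lrrc19 itself gave 212 and 20.9 on its 2 probe sets in the KO pool, against 905 and 391 in the WT pool.

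The scaling between the arrays is not known, and it decides the sign of the small differences. The hybridization controls (spike-ins), foreign transcripts added to every sample, were brighter on the KO array on 18 of 18 probe sets, with a median log2 difference of 0.50. If the arrays are centred on these spike-ins, the median of all genes becomes -0.48, and every difference below is lower by 0.50. As a measure of error within the arrays, the 2 brightest probe sets of a gene were set against each other. Over 4529 genes with such a pair above the floor on both arrays, the gap between their log2 differences had a robust SD of 0.252. This gap reflects the probes and not the mice.

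**Figure D1:**
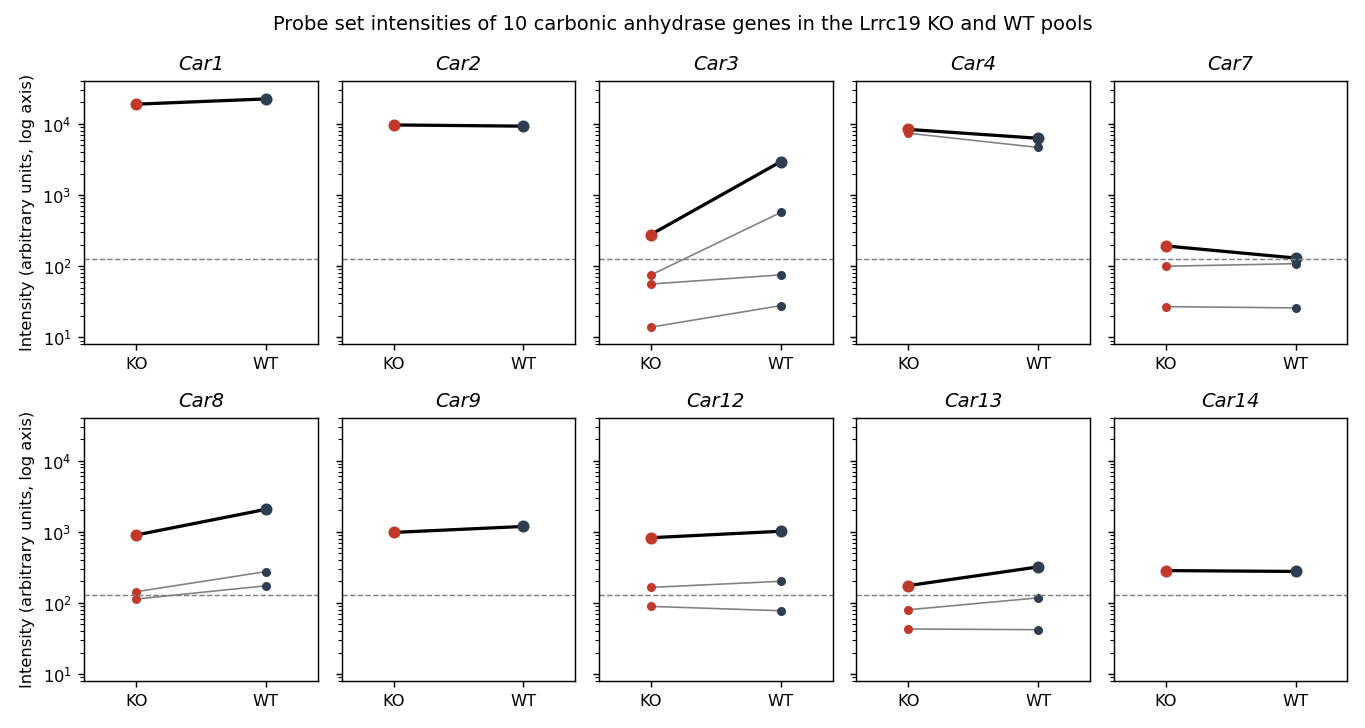
Intensity (arbitrary units, log axis) of every probe set of the 10 genes in the Lrrc19 KO pool (red, left) and the WT pool (dark, right) (1 array each, hence no error bars). Thick lines join the values of the brightest probe set, thin lines those of the others, and a dashed line marks the floor, 127. The brightest probe set of Car3 lies at 278 in KO and 2940.5 in WT, and the lines of Car2 and Car14 are nearly flat.

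Car3, the cytosolic isoform of low activity found in adipocytes and muscle fibers, stood apart. Its brightest probe set (1449434_at) had an intensity of 278 in the Lrrc19 KO pool and 2940.5 in the WT pool, a log2 difference of -3.40. This was the second lowest of all 12518 genes, after Adipoq, whose KO value was under the floor. A further probe set (1460256_at) gave 75.2 in KO and 568 in WT. Set against the floor, because KO did not reach it, this is at least 4.46-fold lower. The other 2 probe sets of Car3 were under the floor in both pools (56.1 and 13.9 in KO, 75.4 and 27.9 in WT) and are not read as levels. All 4 were dimmer in KO, and averaging all of them gave a log2 difference of -1.94. The 5 genes whose difference lay closest to that of Car3 were the immunoglobulin light chain gene Iglv1 (-3.18), the fat hormone Adipoq (-3.68), the secreted lectins Reg3g (-2.23) and Reg4 (-2.22), and the chemokine Cxcl9 (-2.16). Reg3g, Reg4, and Cxcl9 were 1.17 to 1.24 log2 units away from Car3. Adipoq and Cxcl9 were under the floor in KO, so the size of their differences is not known. Set against the floor, Adipoq was at least 2.46-fold lower. Of the 5, only Iglv1 thus lay near Car3 on values above the floor in both pools. With 1 pool per genotype each difference is a single number per gene.

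Markers of fat and muscle were set beside Car3, since both tissues express it. Of 17 adipocyte markers on the array, 12 reached the floor. Among these, 2 were at least 2-fold lower, none was higher, and the median log2 difference was -0.16. The hormone Adipoq had 24.4 in the KO pool and 313 in the WT pool (at least 2.46-fold lower), and the fatty acid carrier Fabp4 had 648 in KO and 1372 in WT on the brightest of its 4 probe sets, 1 of which was higher in KO. The lipase Lpl had 545 in KO and 1024 in WT. Retn, another hormone of fat, had 123, under the floor, in KO and 199.8 in WT (at least 1.57-fold lower). The lipid droplet proteins Plin4 (372 in KO and 337 in WT) and Cidec (304 in KO and 276 in WT) were instead slightly brighter in KO, and Lep was under the floor in both pools (35.7 in KO and 37.4 in WT). The intensities of the 17 markers summed to 6748 in KO and 8802 in WT. Of 16 skeletal muscle markers, 5 reached the floor, and all 5 were above 0 (median log2 difference 0.36). They included the enolase Eno3 (1144 in KO and 403 in WT) and the troponin Tnni2 (279.6 in KO and 174 in WT), while the fast myosins Myh1, Myh2, and Myh4 were under the floor in both pools. The sums were 3678 in KO and 2457 in WT. The 10 smooth muscle markers were all brighter in KO, with a median log2 difference of 0.37, none past 2-fold, and sums of 78797 in KO and 60019.7 in WT. The brightest, Acta2, had 14996 in KO and 12549 in WT, beside 12915 in KO and 12473 in WT for the epithelial marker Epcam. Both pools thus held clear smooth muscle signal besides that of epithelium. Of the 12 adipocyte markers at the floor, 8 had a log2 difference below 0 and 4 above it, where 47.9% of all genes were below 0. Centred on the spike-ins, the median was -0.66 for the adipocyte markers, -0.14 for skeletal muscle, and -0.12 for smooth muscle, beside -0.48 for all genes. The part of fat or muscle RNA in the value of Car3 was not tested.

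Car8, the isoform without catalytic activity, was lower on every probe set. The brightest (1427482_a_at) had 899 in the Lrrc19 KO pool and 2063 in the WT pool, a log2 difference of -1.20. The second gave 143 in KO and 275 in WT (1.92-fold lower), and the third 113 in KO, under the floor, and 174 in WT (at least 1.37-fold lower). The brightest pair of probe sets differed by 0.26 in their log2 differences, about 1 robust SD (0.252) of such gaps over all genes. By its brightest probe set Car8 was the 22nd lowest of 12518 genes. With all 3 averaged, its log2 difference was -0.92 and it did not pass 2-fold. Markers of neurons, where Car8 is best known, were dim, at 155 to 291 in KO and 134 to 271 in WT. Of 7 neuron markers on the array, all reached the floor and none differed by 2-fold (median log2 difference 0.21, and -0.28 when centred on the spike-ins). Their intensities summed to 1734 in KO and 1487 in WT, and the part of neuron RNA in the value of Car8 was not tested.

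The cytosolic isoforms besides Car3 did not move together. Car1, a moderately active enzyme known from red cells and colon, had 18909 in the Lrrc19 KO pool and 22420.1 in the WT pool (log2 difference -0.25). Car2, the fast and widely expressed isoform, had 9659 in KO and 9288 in WT (0.06). Each of these genes had a single probe set, and neither difference exceeded 0.252, the robust SD of the gap between probe sets of a gene. Red cells also carry Car1 and Car2. The heme synthesis enzyme Alas2 (58.0 in KO and 69.8 in WT) and the globin Hba-a1, read from 1 probe set, were under the floor in both pools. Of 11 erythroid markers listed, 6 were read and 2 of these reached the floor, with a sum over all 6 of 601 in KO and 563 in WT. The beta globins Hbb-b1 and Hbb-bt had no probe set annotated to them alone, and probe sets with several symbols were not used. Globin RNA was thus hardly covered, and the part of red cell RNA in Car1 and Car2 was not tested.

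Car13 and Car7 were closer to the floor. Car13, a cytosolic isoform with a broad tissue distribution, had 175 in KO and 320.1 in WT on its brightest probe set (1421307_at), a log2 difference of -0.87 and the 95th lowest of 12518. Its second probe set was under the floor in both pools (80.0 in KO and 118 in WT), and the remaining one was flat (42.9 in KO and 42.0 in WT). Car7, a cytosolic isoform best known from brain, had 192 in KO and 130.1 in WT (log2 difference 0.56). Its WT value lay just above the floor. Neither of its other probe sets reached the floor, and these gave 99.8 and 27.0 in KO and 108 and 25.9 in WT. The difference of Car7 thus rests on 1 probe set.

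In the RefSeq table of GRCm38.p6, Car13, Car1, Car3, and Car2 follow each other in this order on chromosome 3, with 0 protein-coding genes between neighbors. Their log2 differences along this order were -0.87, -0.25, -3.40, and 0.06. The neighbors of Car3 on both sides thus differed less than 2-fold between the pools.

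**Figure D2:**
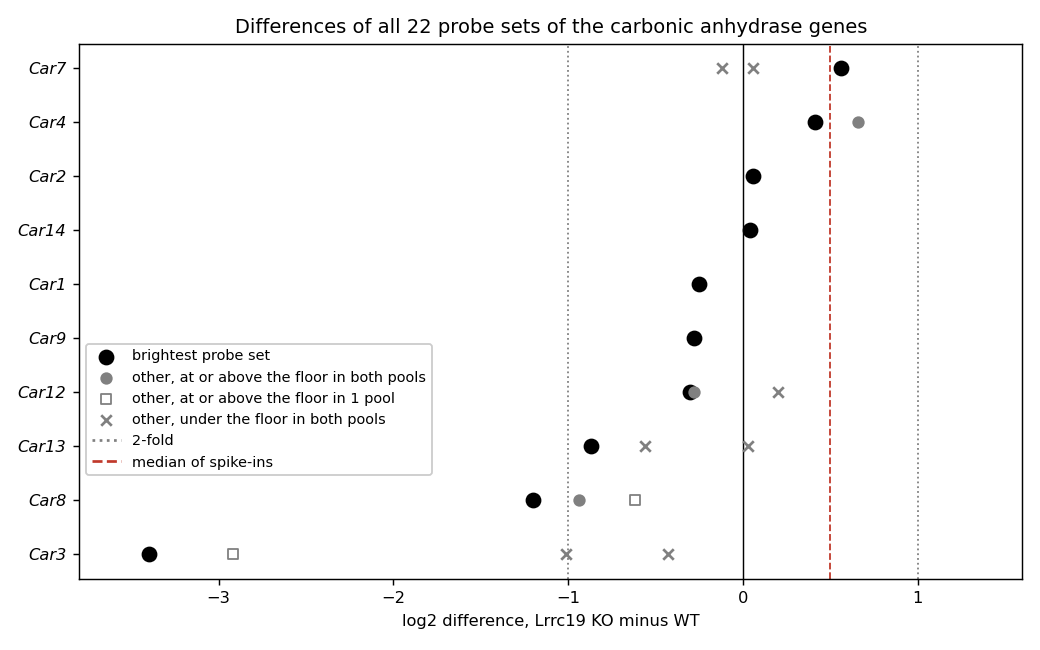
Difference between the pools (log2, Lrrc19 KO minus WT) for all 22 probe sets of the 10 genes, with the genes ordered by their brightest probe set. Black points are the brightest probe sets, and the other symbols show whether a probe set reached the floor in both pools, in 1, or in neither. Dotted lines mark 2-fold and the dashed red line the median of the spike-ins (0.50), and the probe sets of Car3 lie farthest to the left.

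The membrane-bound isoforms differed by less than 2-fold. Car4, which is tethered by a lipid anchor at the apical surface, was brighter in the Lrrc19 KO pool on both probe sets. It had 8359 in KO and 6274 in WT on the brightest one (log2 difference 0.41), and 7385 in KO and 4661 in WT on the other (0.66), which can match several transcripts. The gap between them was 0.25. Car4 ranked 864th from the top of 12518 genes, and when the arrays were centred on the spike-ins its log2 difference was -0.08, so that its direction depends on the scaling. The transmembrane isoforms Car9, Car12, and Car14 have their active sites outside the cell. Car9 had 977 in KO and 1186 in WT (log2 difference -0.28). Car12 had 824 in KO and 1015 in WT (-0.30), with a second probe set at 165 in KO and 201 in WT (-0.28) and the remaining one under the floor (89.2 in KO and 77.5 in WT). Car14 had 284 in KO and 277 in WT (0.04), on a single probe set that can match several transcripts. All 3 differences were smaller than the offset of the spike-ins.

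Car9 is the family member best known as a target of the hypoxia-inducible factors, whose binding site holds the letters ACGTG. Promoter windows of 250 bases before the annotated start were read from the RefSeq sequences of GRCm38.p6, which held 7 entries for 5 of the 10 genes (Car4, Car7, Car9, Car12, and Car14) and none for Car1, Car2, Car3, Car8, and Car13. The letters ACGTG were searched on both strands, so that CACGT is the same match on the other strand. They were found in 2 of the 7 windows and in 16.6% of all 32851 windows. Those of Car9 and Car14 are shown because they hold the match, which is printed in capitals and begins 18 bases before the start in Car9 and 7 bases before it in Car14. The letters TATAAA, searched likewise, were in none of the 7 and in 12.4% of all windows. The Car9 window is chr4:43506776-43507025 on the plus strand and the Car14 window is chr3:95904686-95904935 on the minus strand.
Car9: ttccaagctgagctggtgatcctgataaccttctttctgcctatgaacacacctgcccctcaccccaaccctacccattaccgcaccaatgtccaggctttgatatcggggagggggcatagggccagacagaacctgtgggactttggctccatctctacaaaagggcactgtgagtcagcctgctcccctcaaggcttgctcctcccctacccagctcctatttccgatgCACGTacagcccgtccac
Car14: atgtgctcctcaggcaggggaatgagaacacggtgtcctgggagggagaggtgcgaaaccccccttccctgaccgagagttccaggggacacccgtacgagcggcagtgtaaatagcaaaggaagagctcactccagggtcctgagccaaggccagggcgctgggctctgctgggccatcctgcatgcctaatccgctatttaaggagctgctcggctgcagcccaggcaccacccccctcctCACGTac

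A match of this kind is a description of the sequence and not a binding site. On the array, Car9 (-0.28) and Car14 (0.04) differed little. Of 19 other hypoxia-induced genes on the array, 18 reached the floor. Among these the prolyl hydroxylase Egln3 was 2.13-fold higher (1396 in the Lrrc19 KO pool and 656 in the WT pool), and none was at least 2-fold lower. The hexokinase Hk2 had 2515 in KO and 1530 in WT, the glucose transporter Slc2a1 had 3582 in KO and 2484 in WT, and the peptide hormone Adm had 198 in KO and 121, under the floor, in WT. The median of the 18 genes was 0.20, and -0.29 when the arrays were centred on the spike-ins. Of the 18, 16 had a log2 difference above 0. Car9 and Car12, which is also hypoxia-responsive in tumor cells, were below 0, at -0.28 and -0.30, little beyond 0.252, the robust SD of the probe set gap. Centred on the spike-ins they were at -0.78 and -0.80, below 0 like the median of the list, so the contrast in sign depends on the scaling. Their place below that median does not, because this centring shifts all genes alike.

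**Figure D3:**
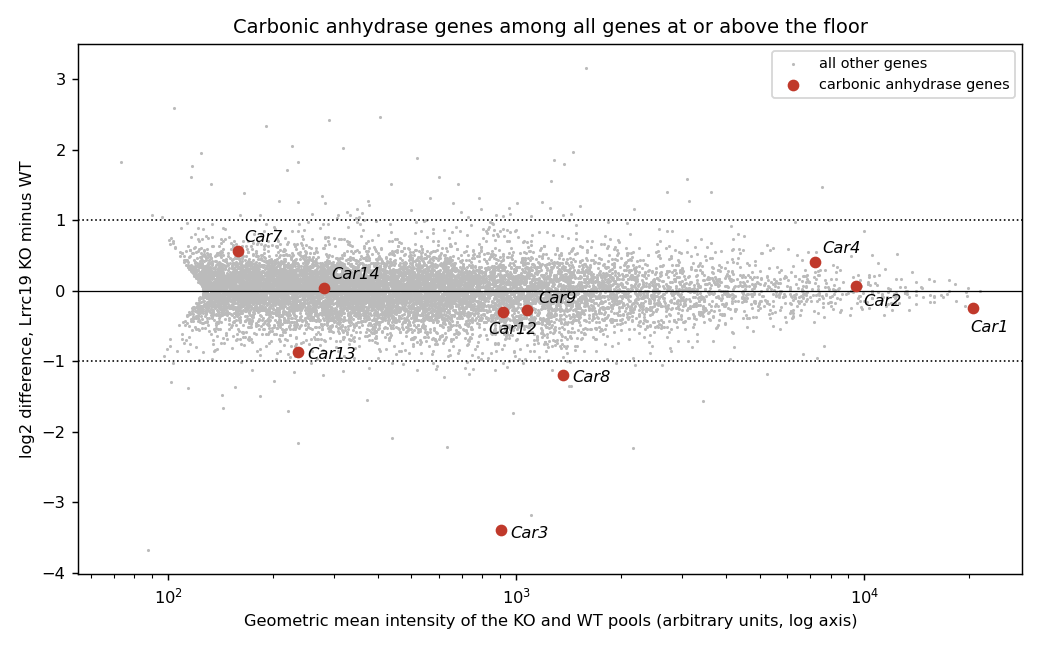
Log2 difference (Lrrc19 KO minus WT) against the geometric mean intensity of the pools (arbitrary units, log axis) for all 12518 genes at or above the floor (grey) and the 10 carbonic anhydrase genes (red). Dotted lines mark 2-fold. Car3 (-3.40) and Car8 (-1.20) lie below the lower line, Car13 (-0.87) lies just above it, and the others lie within the main cloud.

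Genes that work with carbonic anhydrases in salt and acid transport were described from a list. Of 23 transporters of bicarbonate, chloride, and protons and their partners on the array, 19 reached the floor. Among these 2 were at least 2-fold higher, none was lower, and the median log2 difference was 0.23 (-0.26 when centred on the spike-ins). Atp12a, which encodes the catalytic subunit of the colonic proton pump, had 4760.2 in the Lrrc19 KO pool and 531 in the WT pool. The water channel Aqp8 had 4873 in KO and 2019 in WT. The chloride-bicarbonate exchanger Slc26a3 (8844 in KO and 4525 in WT) and the sodium-proton exchanger Slc9a3 (5713 in KO and 3014 in WT) were 1.95-fold and 1.90-fold higher and did not pass 2-fold. Of the 19, 16 had a log2 difference above 0 and 3 below it.

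Markers of gut regions were set beside the family too, because Car1 and Car4 are graded along the gut. Of 15 colon markers on the array, 12 reached the floor. Among these 4 were at least 2-fold higher and none was lower, with a median log2 difference of 0.89. These 4 were Atp12a, Aqp8, and the posterior homeobox genes Hoxb13 (738 in KO and 259 in WT) and Hoxd13 (255 in KO and 42.4 in WT, under the floor). Atp12a, Aqp8, and Slc26a3 are also in the transporter list. The second probe set of Hoxd13 ran the other way. Of the 12 colon markers at the floor, 10 had a log2 difference above 0 and 2 below it. Those 2 were Mettl7b (3133 in KO and 4152 in WT) and Prap1 (1252 in KO and 1871 in WT). The posterior homeobox gene Hoxd10 was nearly flat (199 in KO and 189 in WT), and Hoxd11, Hoxd12, and Hoxa13 were under the floor in both pools. The sums over the 15 markers were 36976 in KO and 23592 in WT. Of 13 small intestine markers, 10 reached the floor and none passed 2-fold (median 0.08). The ileal bile acid carrier Fabp6 had 150.6 in KO and 251 in WT, whereas the retinol carrier Rbp2 had 203 in KO and 131 in WT. Of the 10, 6 had a log2 difference above 0, and the sums were 16522 in KO and 14769 in WT. Centred on the spike-ins, the median of the colon markers was 0.39 and that of the small intestine markers -0.42, beside -0.08 for Car4 and -0.74 for Car1. The part of a regional difference between the pools in these values was not tested. The 11 epithelial markers all reached the floor and differed by less than 2-fold, with a median of 0.05 and Epcam at 12915 in KO and 12473 in WT.

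**Figure D4:**
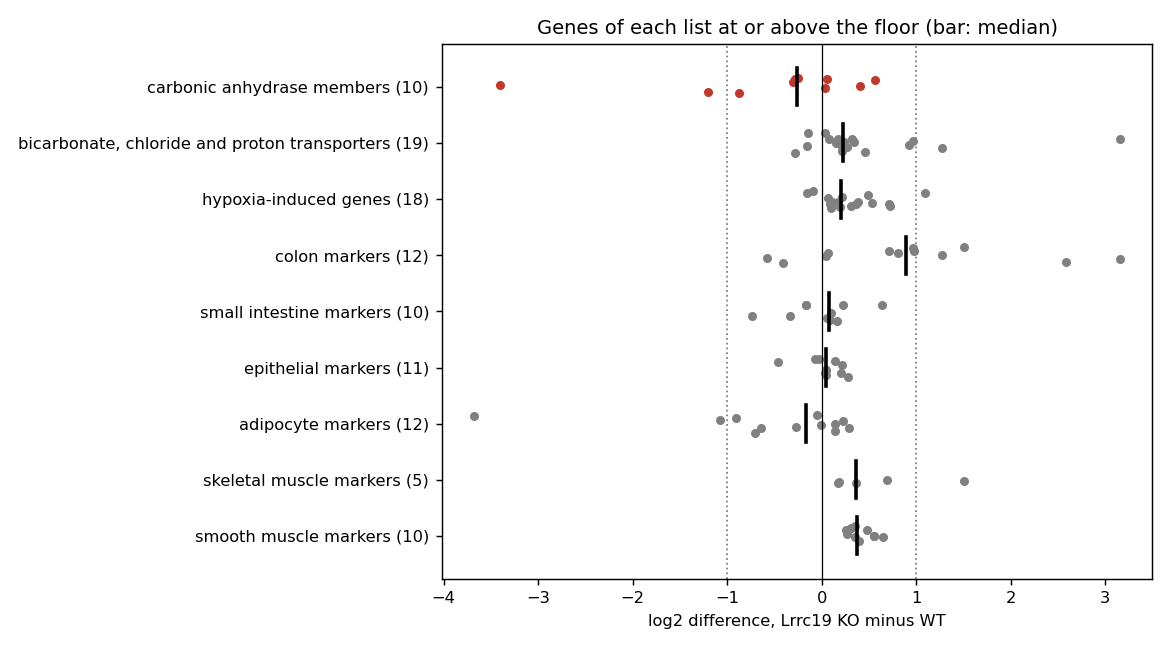
Log2 difference (Lrrc19 KO minus WT) of each gene at or above the floor in the carbonic anhydrase group (red) and in 8 lists (grey), with the number of genes in parentheses, a black bar at the median, and dotted lines at 2-fold. Points are spread vertically for visibility only. The carbonic anhydrases have a median of -0.26 with Car3 far to the left, and the colon markers have a median of 0.89.

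The remaining 6 genes of the family on the array were dim. Car5a and Car5b (mitochondrial), Car6 (secreted in saliva), and the catalytically inactive Car10 and Car11 were under the floor in both pools, with intensities of at most 114 in KO and 109 in WT. Car15, a lipid-anchored isoform, had 115 in KO, under the floor, and 136 in WT, a log2 difference of -0.24. None of the 6 can be ranked between the pools.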

How the data were processed

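The processed table holds 1 intensity for each of 45101 probe sets on each array. The intensities deposited by the authors are on a linear scale, from 1 to 25842, with medians of 131 on the KO array and 124 on the WT array. The submitters' processing notes name RMA without a version, although RMA usually gives log2 values with equal distributions, so the scaling of one array against the other is not known.

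Any value under 1 was raised to 1 before log2 was taken (Python 3.11.15, numpy 2.4.6, pandas 2.3.3, figures with matplotlib 3.10.9). Gene counts exclude the 64 control probe sets. The platform annotation gave a single symbol for 34945 of the other 45037 probe sets. It gave more than 1 for 932, which were not used, and the remaining 9160 have no name here. The RefSeq table of GRCm38.p6 held the gene of 34741 of the 34945, whose symbols were brought up to date with it. A gene was read from the probe set with the highest mean log2 value. As the floor, the 50th percentile over both arrays (controls excluded) was used, and a gene was counted when 1 pool reached it. A log2 difference of at least 1 in size was called. The probe sets with suffix _s_at or _x_at can match several transcripts (5 of the 22 described). With 1 array for each genotype no test was run, and precision is limited by that number. The counting of calls was tested on simulated data, with changes well past 2-fold in bright genes and little added noise. It therefore checks the code and not the reliability of calls near 2-fold or near the floor.

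The genes named are all 10 members with every probe set, the rest of the family, up to 4 genes of each of 13 lists by size of difference (more where a marker defines a cell type), and the 5 genes closest to the member with the largest difference. The members and lists were chosen with earlier results of these data known. Scaling, probe set choice, floor, and an added value of 64 were varied in 10 alternatives.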

Additional observations from a re-analysis of the deposited data

How the results depend on the processing

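With 10 alternatives, none changed the sign of Car1, Car3, Car7, Car8, Car9, Car12, or Car13 where it gave a value. A value was taken as moved when it shifted by more than 0.252, the robust SD between probe sets of a gene. The number of carbonic anhydrases lower in KO by at least 2-fold was 2 (Car3 and Car8) under 8 alternatives, 3 (with Car13, at -1.37) when centred on the spike-ins, and 1 (Car3) with all probe sets averaged, where Car8 was at -0.92. None was higher under any alternative. The median of the members was -0.76 when centred on the spike-ins, where that of all genes was -0.48, and between -0.34 and -0.19 otherwise. The log2 difference of Car3 ran from -3.90 to -1.94, that of Car8 from -1.70 to -0.92, and that of Car4 from -0.08 to 0.54. The signs of Car2 (-0.44 to 0.11) and Car14 (-0.46 to 0.09) changed under 2 alternatives each, the spike-in centring and the equal medians. Of the 12 control genes planned for centring, 8 were measured. Car7 and Car13 gave no value with the floor at the 75th percentile or with all probe sets averaged, and Car14 none at the higher floor or without probe sets that can match several transcripts. No paired analysis was possible because each genotype had 1 pool and the labels carry no replicate numbers.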

Other observations

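Further lists were measured beside the carbonic anhydrases. Of 14 markers of mature surface epithelium, the compartment in which Car4 is known to be expressed, all reached the floor, the phosphate transporter Slc20a1 was 2.63-fold higher (4390.4 in the Lrrc19 KO pool and 1668 in the WT pool) on the brightest of its 3 probe sets, 1 of which was lower, and none was at least 2-fold lower. Their median log2 difference was 0.07, with Guca2b at 398 in KO and 637 in WT and Muc3 at 14862 in KO and 10377 in WT. Of 11 leukocyte markers on the array, 9 reached the floor and none passed 2-fold (median 0.05, and -0.45 when centred on the spike-ins). The sign of this median changed under 4 of 10 alternatives. Of the 9, 5 had a log2 difference above 0 and 4 below it. Adgre1 had 363 in KO and 606 in WT, and Fcgr3 had 260.5 in KO and 420 in WT. Ms4a1 went the other way, with 166 in KO and 107.5, under the floor, in WT. The intensities of the 11 markers summed to 4307 in KO and 4719 in WT.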
